A study of Mus musculus with 4 samples.

Results

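Platelets and red blood cells descend from a shared megakaryocyte and erythroid branch of blood formation, and early progenitors can carry low amounts of the transcripts of that branch before they commit to it, a state called lineage priming. The genes described here are 10 such transcripts: Pf4, Itga2b, Gp1bb, Gp5, Gp9 and Vwf of the platelet line, Car1, Car2 and Tfrc, which are prominent in the red cell line, and Apoe, a lipid carrier that early megakaryocyte and erythroid progenitors also transcribe. They were taken by symbol, through the RefSeq transcript accession of each array probe, which gave 15 probes of the 55681 non-control probes on the array. All 10 genes passed the filter on dim probes, with 13 of their 15 probes, and stand among 22362 genes and unnamed transcripts tested.

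The samples were sorted lymphoid-primed multipotent progenitors (LMPP), bone marrow cells that can still form lymphoid and myeloid cells, of knock-in mice whose green fluorescent protein (GFP) reports IRF8, which monocytes and dendritic cells need to develop. Cells of both groups carried CD117, Sca-1, CD34 and CD135, lacked lineage markers, IL-7R and CD150, and came from mice of the same description, whose strain, age and allele structure are not given in the sources used here. IRF8-GFP positive LMPP and IRF8-GFP negative LMPP were each measured on 2 one-colour Agilent arrays, which the titles of both groups number as exp 1 and 2. Nothing in the labels says whether the 2 arrays of a group hold different animals, so the p-values stand for array-to-array spread that could be purely technical.

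Values are log2 signals relative to the 75th percentile of the array, so that a value of 0 is the signal of a probe at that percentile, and a difference is the mean of the positive arrays minus the mean of the negative arrays. The sort was visible in Irf8 itself, at 5.13 and 5.22 on the positive arrays and 1.64 and 1.60 on the negative arrays, a difference of 3.55 (SE 0.06, limma adjusted p = 0.000802). The positive arrays had fewer spots above background, 29631 and 30266, against 33506 and 33681 on the negative arrays, of 59305 spots. Genes of the sorting gate were above background on every array except Slamf1, which encodes CD150 and was above background on 0 of 4 arrays. Their levels differed between the groups. Ly6a, which encodes Sca-1, was lower (-0.96, limma adjusted p = 0.00222), as was Kit, which encodes CD117 (-0.39, limma adjusted p = 0.00769). Flt3 (0.25) and Cd34 (0.26) were higher, but each turned sign in 4 of 11 alternative ways of processing. Il7r, whose protein the gate excludes, gave 0.86 and 0.83 on the positive arrays and -1.57 and -1.54 on the negative arrays.

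Megakaryocytes take up or make the contents of platelet granules, and they put receptors on the cell surface that let platelets stick to damaged vessels. The glycoprotein Ib-IX-V complex binds von Willebrand factor, and the integrin made of the chains encoded by Itga2b and Itgb3 binds fibrinogen and links platelets to each other. Red cell precursors take in transferrin-bound iron through the transferrin receptor for haem, and fill with haemoglobin and carbonic anhydrase. GATA1, GATA2 and ETS family factors are known to drive platelet genes, whereas IRF8 acts in the myeloid lines, often by binding composite sites beside the ETS factor PU.1.

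Of the 10 genes, 8 were lower and 1 was higher in IRF8-GFP positive LMPP at a limma adjusted p under 0.05, and 1 did not pass. Over all genes tested 21.4% were lower, 38.5% were higher and 59.9% passed in either direction. The 8 lower genes were Pf4, Itga2b, Gp5, Gp9, Vwf, Car1, Car2 and Apoe. Of these 7 were above background on all 4 arrays, whereas Gp5 was kept through the negative arrays alone and its positive values lie under background. Tfrc was higher, and Gp1bb did not pass. The median difference of the 10 genes was -1.25, against 0.16 for all genes tested. A change of at least 2-fold was seen in 6 of the lower genes above background on all arrays and in Tfrc, while Gp5 has only a bound below 2-fold, and 5.61% of all genes were lower by that much, 2.33% were higher and 7.93% changed so in either direction. The positive and negative arrays did not overlap in 9 of the 10 genes, but 82.2% of all genes had no overlap either, 29.8% with the positive arrays below and 52.4% with them above, so the absence of overlap sets these genes apart little. Brightness bears on these shares: in 4 equal bins from dim to bright, 26%, 31.8%, 19.8% and 7.85% of genes were lower. Gp5 and Gp1bb lie in bin 1, Itga2b, Vwf and Car1 in bin 2, Pf4, Gp9, Tfrc and Apoe in bin 3 and Car2 in bin 4. In bin 3, 2.92% of genes were lower by at least 2-fold and 44.6% were higher. Of the 1254 genes lower by at least 2-fold, 163 lie in bin 3 and 70 in bin 4. Most of these 1254 genes thus lie in the dimmer bins 1 and 2, which hold Gp5, Itga2b and Vwf. A fall of that size was therefore more common in bins 1 and 2 than in bins 3 and 4. In these sorted pools, fewer cells with a transcript and less of it per cell cannot be told apart.

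**Figure D1:**
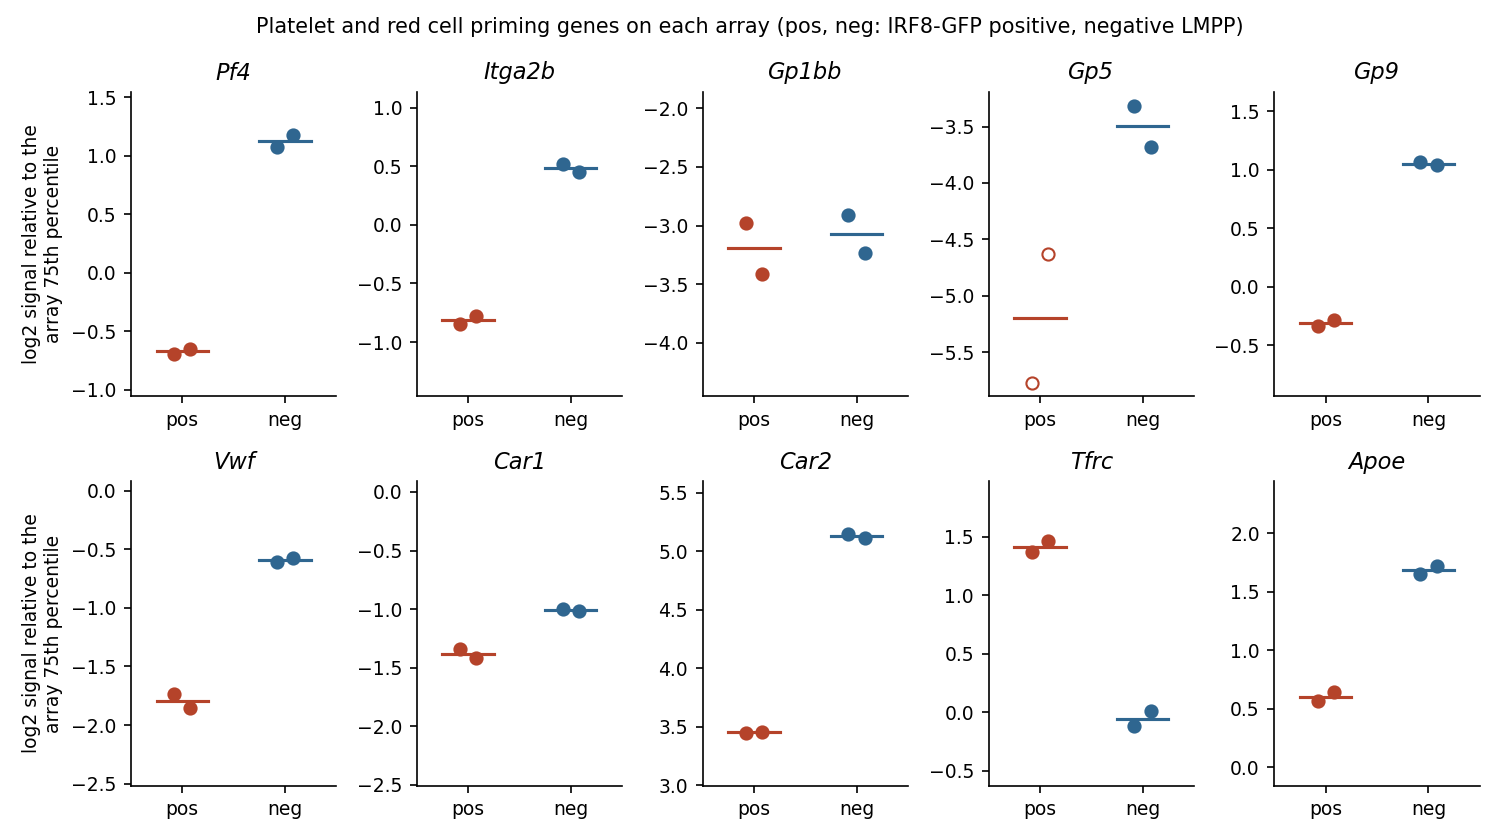
Signal of each of the 10 genes on each array, as log2 relative to the 75th percentile of the array (vertical axes), with the 2 positive arrays (pos) left of the 2 negative arrays (neg) and a line at each group mean; open circles are arrays on which the probe was not well above background. Pf4, Itga2b, Gp5, Gp9, Vwf, Car1, Car2 and Apoe lie lower on both positive arrays, Tfrc lies higher, and the groups of Gp1bb overlap.

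Pf4 encodes platelet factor 4, a chemokine stored in platelet alpha granules. Its signal was -0.69 and -0.65 on the positive arrays and 1.07 and 1.18 on the negative arrays. Both positive arrays lay well below both negative ones, and the arrays of a group were close together. The difference was -1.80 (SE 0.07, 95% interval -1.98 to -1.61, limma adjusted p = 0.00126), or 3.47-fold lower, at percentile 1.35 of the differences of all genes.

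Vwf encodes von Willebrand factor, the large adhesive protein of megakaryocytes and endothelium that tethers platelets under flow. Its signal was -1.73 and -1.86 on the positive arrays, against -0.60 and -0.58 on the negative arrays. Again no positive array reached a negative one. Vwf was 2.30-fold lower (difference -1.20, SE 0.07, limma adjusted p = 0.00172), with a smaller difference of -0.74 under normexp background correction, an alternative that models background and adds an offset to each spot. Endothelium makes Vwf too, and of 8 tested markers of endothelium and stroma 3 were lower, 1 was higher and 4 did not pass, with a summed linear level of 25.3 and 20.8 on the positive arrays and 20.2 and 18.3 on the negative arrays. That split did not hold under normexp background correction, with 3 higher, or without negative array 1 or 2, where these calls were lost. Among the endothelial markers, Cdh5 was above background on 0 of 4 arrays. Tek was above background on the negative arrays alone and was lower (-1.85), a call lost in 3 of 11 alternatives. Pecam1 and Kdr were above background on all 4 arrays, with Pecam1 higher (0.38) and Kdr not passed. The part of these markers in the difference of Vwf was not tested.

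Itga2b encodes the alpha IIb chain, CD41, one of the earliest surface proteins of the megakaryocyte line and also found on early blood progenitors. It gave -0.85 and -0.78 on the positive arrays and 0.52 and 0.45 on the negative arrays, with a wide gap between the groups. It was 2.46-fold lower (difference -1.30, SE 0.06, limma adjusted p = 0.00147). The beta chain of the same receptor moved the other way. Itgb3 gave 1.14 and 1.20 on the positive arrays, against 0.21 and 0.31 on the negative arrays, and was 1.88-fold higher (limma adjusted p = 0.0021). So the 2 chains of this integrin differed in opposite directions between the sorted groups. Of the 7 other genes tested on a list of integrin partners and activators, 4 were higher and 3 did not pass, but 2 were higher and 2 lower under quantile normalization, cyclic loess, spike-in scaling and with the authors' deposited matrix. All of the 7 but Itgb3 and Itgav lie in brightness bin 4, where 67.1% of all genes were higher. Among the higher genes of the list was Rasgrp2, an activator of the small GTPase Rap1 (0.69, 1.61-fold, but 0.35 under quantile normalization). Apbb1ip, the Rap1 effector RIAM, was also higher (0.49, 1.40-fold). The Apbb1ip call was lost in 5 of 11 alternatives, among them quantile normalization, cyclic loess, spike-in scaling and the authors' deposited matrix.

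Of the 3 members in the glycoprotein Ib-IX-V complex, Gp9 and Gp5 were lower, Gp5 with positive values under background, and the dim Gp1bb probe did not pass. Gp9 encodes glycoprotein IX, a small chain that the complex needs to reach the surface. It gave -0.34 and -0.29 on the positive arrays and 1.06 and 1.04 on the negative arrays, and these groups were far apart. Gp9 was 2.57-fold lower (difference -1.36, SE 0.06, limma adjusted p = 0.00136).

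Gp5 encodes glycoprotein V, a chain that thrombin cleaves. Its probe was well above background on 0 of 2 positive arrays (-5.77 and -4.63) and on 2 of 2 negative arrays (-3.32 and -3.68). The positive values lie under the background limit and differ from each other by more than those of any other gene here. The fitted difference was -1.70 (SE 0.42, limma adjusted p = 0.03), and with the positive side taken at the background limit Gp5 was at least 1.41-fold lower. This call was lost with the replicate number as a block (adjusted p = 0.0561), without negative array 1 (0.125) or 2 (0.0898), and with no filter on dim probes (0.0623), and under normexp background correction the difference was -0.03 (adjusted p = 0.772).

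Gp1bb encodes the beta chain of glycoprotein Ib, which is disulfide-linked to the alpha chain that binds von Willebrand factor. It gave -2.98 and -3.41 on the positive arrays and -2.91 and -3.24 on the negative arrays. The arrays of the groups interleave, with array 1 above array 2 in both groups. The difference was -0.12 (SE 0.20, limma adjusted p = 0.623), and its 95% interval from -0.67 to 0.43 leaves room for a change in either direction. This probe is dim, and the other 2 probes of Gp1bb were above background on 0 of 4 arrays. In the annotation Gp1bb overlaps Septin5, which encodes a cytoskeletal GTPase and was higher in the positive arrays (difference 0.39, SE 0.09, limma adjusted p = 0.0223). The files do not say whether that probe reads 1 or both transcripts.

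Gp1ba, the alpha chain, was well above background on 0 of 2 positive arrays (-4.02 and -4.80) and on 2 of 2 negative arrays (-3.02 and -2.72). It was at least 2.18-fold lower (limma adjusted p = 0.0157), a call lost without negative array 1 (0.0589) or 2 (0.0814), and its difference was -0.36 under normexp background correction. The other 2 tested partners of the complex are general cell proteins: Flna, an actin crosslinker, and Ywhaz, a 14-3-3 adaptor. Both were higher by small amounts (0.33 and 0.25), but Flna had the opposite sign under quantile normalization, cyclic loess and with the authors' deposited matrix, and Ywhaz under spike-in scaling. The Flna call was lost in 8 of 11 alternatives and the Ywhaz call in 10.

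Promoter windows of the platelet genes are shown as a description of their letters. RefSeq windows on GRCm38.p6, of 250 bases before and 50 after the annotated start, were matched for 7 of the 10 genes. Those of 5 platelet genes lie at chr5:90772185-90772484 (plus strand) for Pf4, chr11:102469834-102470133 (minus strand) for Itga2b, chr6:87777820-87778119 (plus strand) for Gp9, chr16:30310732-30311031 (minus strand) for Gp5 and chr16:18622354-18622653 (minus strand) for Gp1bb, and are printed 5′ to 3′ on the strand of the gene. Capitals mark matches, on either strand, to a GATA motif (GATA after A or T and before A or G), an ETS motif (GGAAG before T or C), an ETS-IRF composite (GGAA, any 2 bases, then GAAA) or an IRF element (GAAA, any 2 bases, then GAAA).
Pf4: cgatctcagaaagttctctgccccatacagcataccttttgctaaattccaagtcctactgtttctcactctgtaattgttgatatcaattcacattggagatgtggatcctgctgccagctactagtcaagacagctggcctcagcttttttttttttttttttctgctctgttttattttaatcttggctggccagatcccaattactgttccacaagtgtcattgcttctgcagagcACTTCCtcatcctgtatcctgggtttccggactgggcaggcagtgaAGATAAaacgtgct
Itga2b: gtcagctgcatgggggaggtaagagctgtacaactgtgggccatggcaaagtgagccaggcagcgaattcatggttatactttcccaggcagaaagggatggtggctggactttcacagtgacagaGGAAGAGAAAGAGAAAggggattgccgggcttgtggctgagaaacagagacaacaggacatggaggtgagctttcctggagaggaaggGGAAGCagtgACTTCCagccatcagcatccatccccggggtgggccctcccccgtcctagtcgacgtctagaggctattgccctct
Gp9: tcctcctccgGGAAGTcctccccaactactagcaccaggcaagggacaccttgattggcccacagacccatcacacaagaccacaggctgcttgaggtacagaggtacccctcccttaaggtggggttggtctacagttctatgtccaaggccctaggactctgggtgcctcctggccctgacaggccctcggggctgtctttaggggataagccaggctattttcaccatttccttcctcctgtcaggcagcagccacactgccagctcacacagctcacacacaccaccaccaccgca
Gp5: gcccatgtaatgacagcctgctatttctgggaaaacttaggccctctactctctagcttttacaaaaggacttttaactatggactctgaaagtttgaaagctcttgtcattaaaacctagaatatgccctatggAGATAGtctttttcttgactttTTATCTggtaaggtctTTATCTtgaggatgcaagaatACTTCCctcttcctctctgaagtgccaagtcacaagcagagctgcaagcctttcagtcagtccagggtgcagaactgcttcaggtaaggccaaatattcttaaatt
Gp1bb: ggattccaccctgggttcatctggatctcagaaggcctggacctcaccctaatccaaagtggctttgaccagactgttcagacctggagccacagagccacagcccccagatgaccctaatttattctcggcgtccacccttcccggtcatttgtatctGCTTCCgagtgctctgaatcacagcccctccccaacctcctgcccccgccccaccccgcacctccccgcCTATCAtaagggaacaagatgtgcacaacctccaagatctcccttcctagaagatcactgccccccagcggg
Gp5 held 3 GATA motifs, which start at bases -115, -93 and -77 from the start site, and Pf4 and Gp1bb held 1 each. Each of the 5 windows held an ETS motif, which 43.6% of all 32851 promoter windows of this length also hold, and 29.8% hold a GATA motif. Itga2b held the only composite among the 5, GGAAGAGAAA at bases -124 to -115, and it overlaps an IRF element, GAAAGAGAAA at bases -118 to -109. Of all promoter windows 2.72% hold the composite and 3.44% the IRF element. Gp1bb and Pf4 hold the same kinds of motif. The part of these motifs in the differences of the genes was not tested. A match describes the letters of the window and is not a measured binding site.

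Beyond these genes, 27 of 35 other platelet and megakaryocyte genes were tested: 18 were lower, 2 were higher and 7 did not pass, with a median difference of -0.91. Over all genes 21.4% were lower and 38.5% were higher, shares against which each list count is to be read. Of the lower genes, Trpc6, Gp1ba and Alox12 were kept through the negative arrays alone. Rab27b and Mylk were above background on 1 of 2 positive arrays. The fitted differences of these genes include values under background. Ptgs1, the cyclooxygenase of platelets, gave -1.02 and -0.79 on the positive arrays and 1.66 and 1.58 on the negative arrays, and was 5.74-fold lower (limma adjusted p = 0.0013). Trpc6, a calcium channel of the platelet membrane, was above background on the negative arrays alone and was at least 3.52-fold lower. Ppbp, another granule chemokine, was 2.47-fold lower, and Treml1, a granule receptor, 1.88-fold lower. The lower genes named here thus encode an enzyme, a channel and granule proteins. Under normexp background correction the dimmer ones moved less, with -1.16 for Trpc6, -0.69 for Ppbp and -0.59 for Treml1. Besides Itgb3, the higher gene was P2ry1, an ADP receptor (0.47), which did not pass under 4 of 11 alternatives. Over 6 other scalings and normexp between 17 and 24 of the 27 genes were lower.

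**Figure D2:**
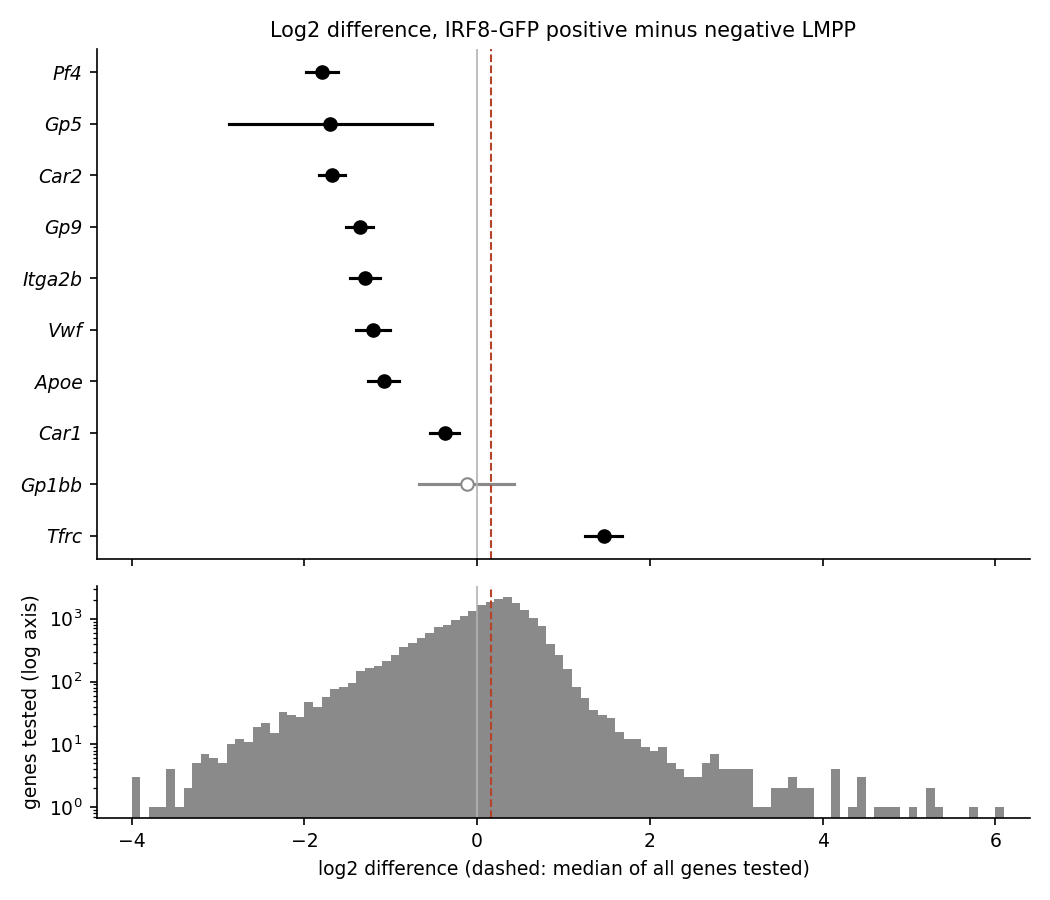
Log2 difference (positive minus negative, horizontal axis) of each of the 10 genes with its 95% interval (open circle, not passed), above the distribution of all 22362 genes tested with the number of genes on a log axis. Pf4 at -1.80 and Car2 at -1.68 lie far to the left of the median of 0.16, and Tfrc at 1.47 lies to the right.

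Car2 encodes carbonic anhydrase 2, the highly active enzyme of red cells and osteoclasts. Its signal was 3.45 and 3.46 on the positive arrays and 5.15 and 5.11 on the negative arrays. The replicate arrays agree within a few hundredths and the groups are far apart. Car2 was 3.20-fold lower (difference -1.68, SE 0.05, limma adjusted p = 0.00114). It lies in bin 4 of brightness, where 7.85% of genes were lower, 1.25% were lower by at least 2-fold, and 67.1% were higher.

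Car1 encodes carbonic anhydrase 1, an abundant enzyme of mature red cells. Its brightest probe gave -1.34 and -1.42 on the positive arrays, against -0.997 and -1.02 on the negative arrays. The groups do not overlap, but the gap is small. In the annotation Car1 overlaps a pseudogene, Gm16399, which was not tested. Car1 was 1.30-fold lower (difference -0.37, SE 0.06, limma adjusted p = 0.00957). Its other probe, near background, gave a difference of -0.11 (SE 0.15, limma adjusted p = 0.564), and the Car1 call was lost with the mean of both probes (adjusted p = 0.055), without negative array 1 (0.0662) or 2 (0.0614), and under normexp background correction (0.0627). Among the 10 other carbonic anhydrases tested, 1 was higher and 2 were lower, against 1 higher and 5 lower under spike-in scaling and 4 higher and 1 lower under normexp background correction. Car12, a membrane enzyme, was 1.86-fold higher. Car5b, a mitochondrial enzyme, was at least 1.07-fold lower and did not pass under normexp background correction, and Car3, an enzyme of muscle and fat, was lower by a difference of -0.36 that did not pass under 3 of 11 alternatives.

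Of 34 other red cell genes 22 were tested: 9 were lower, 2 were higher and 11 did not pass, with a median of -0.17. The alpha globins Hba-a1 (-1.27, 2.41-fold) and Hba-a2 (-1.21, 2.31-fold) and the beta globin Hbb-bs (-1.27, 2.40-fold) were lower, but copies of a globin are nearly identical and their probes may read each other, and the Hbb-bs call was lost without negative array 2 (adjusted p = 0.0593). The split was 15 lower and 7 not passed under spike-in scaling and 5 higher and 7 lower under normexp background correction. Klf1, the factor that switches on red cell genes, was above background on 0 of 2 positive and 2 of 2 negative arrays and did not pass (0.22, limma adjusted p = 0.132). Hemgn, a nuclear protein of blood progenitors (0.40), and Gfi1b, a repressor needed in both lines (0.22), were higher, yet Hemgn had the opposite sign under quantile normalization, cyclic loess and with the authors' deposited matrix, and Gfi1b under spike-in scaling and with centring on the probes detected on every array. The Hemgn call was lost in 8 of 11 alternatives and the Gfi1b call in all 11.

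Tfrc encodes transferrin receptor 1, CD71, which red cell precursors carry in large amounts and which any dividing cell uses to take in iron. It gave 1.36 and 1.46 on the positive arrays and -0.12 and 0.01 on the negative arrays. Both positive arrays lay above both negative ones, the reverse of the other 8 genes that passed. Tfrc was 2.77-fold higher (difference 1.47, SE 0.08, 95% interval 1.25 to 1.68, limma adjusted p = 0.00159), at percentile 99.2 of all genes. Its 3 probes, each above background on all 4 arrays, gave 2.77-fold, 2.51-fold and 2.19-fold, all higher in the positive arrays.

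Its paralog Tfr2, an iron sensor of liver and red cell precursors, moved the other way, at 2.37 and 2.47 on the positive arrays and 3.79 and 3.82 on the negative arrays, 2.61-fold lower. Of 20 tested genes of cell iron uptake and handling, 8 were higher, 3 lower and 9 did not pass. Over all genes 38.5% were higher and 21.4% lower, so the count of higher genes does not set this list apart. Steap3, the endosomal reductase that frees iron brought in by the transferrin receptor, was 1.88-fold higher. The iron chaperones Pcbp1 (0.57) and Pcbp2 (0.56) were higher, but did not pass under quantile normalization, cyclic loess or with the authors' deposited matrix. Slc40a1, the iron exporter ferroportin, was at least 1.75-fold lower, and its difference was 0.01 under normexp background correction. Hmox1, which breaks down haem, was lower (-0.86), a call lost without positive array 1 (adjusted p = 0.059) or 2 (0.0588). The split of this list depended on the scaling, with 3 higher and 5 lower under quantile normalization and 3 higher and 6 lower under spike-in scaling.

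Among the 9 enzymes of haem synthesis, 6 were higher, 1 was lower and 2 did not pass, against 3 higher and 2 lower under spike-in scaling. All of them but Alas2 lie in brightness bins 3 and 4, where 44.6% and 67.1% of all genes were higher. Among the higher enzymes were Alas1, the first enzyme of the pathway in most cells (0.92, 1.89-fold, but 0.61 under spike-in scaling) and Alad, the next one (0.63, 1.54-fold, but 0.32 under spike-in scaling). Alas2, the red cell form of that first enzyme, was lower (-1.04) and above background on 0 of 2 positive arrays, with no fold because the negative arrays were also near the background limit. Its difference was 0.10 under normexp background correction.

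Apoe encodes apolipoprotein E, which carries lipid and binds receptors of the LDL family, and is made by liver, macrophages and some blood progenitors. It gave 0.57 and 0.64 on the positive arrays, against 1.65 and 1.72 on the negative arrays. The groups were far apart and the arrays of each group close together. Apoe was 2.12-fold lower (difference -1.08, SE 0.06, limma adjusted p = 0.00177). Of 11 other apolipoprotein and lipoprotein receptor genes tested, 4 were higher, 3 lower and 4 did not pass, against 2 higher and 6 lower under spike-in scaling. Vldlr, an Apoe receptor, was 3.23-fold lower. The cholesterol exporters Abcg1 (-0.38) and Abca1 (-0.33) were lower by less, and both calls were lost without negative array 1 or 2, and that of Abca1 also without positive array 1. Scarb1, the HDL receptor, was 1.74-fold higher, and Lrp1, another Apoe receptor, 1.42-fold higher. Apoc1, the neighbour of Apoe in its gene cluster, was higher (0.45) where Apoe was lower. Its call was lost in 5 of 11 alternatives, among them spike-in scaling (limma adjusted p = 0.361) and leaving out negative array 1 or 2.

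Since macrophages also make Apoe, 11 macrophage markers were read beside it: 8 were tested, of which 5 were lower, 1 was higher and 2 did not pass. Their summed linear level was 1.22 and 1.15 on the positive arrays and 2.37 and 2.02 on the negative arrays. Spic, a factor of red pulp macrophages, was 3.54-fold lower and Axl, a receptor for dying cells, 2.68-fold lower, with smaller differences of -1.09 for Spic and -0.47 for Axl under normexp background correction. C1qc (-0.99) and Vcam1 (-1.41) were also lower and were above background on the negative arrays alone. The C1qc call was lost in 1 of 11 alternatives. The higher marker was Adgre1 (0.91). C1qa (-0.05) and C1qb (0.04), which macrophages make in bulk, did not pass, and Cd163, Mrc1 and Mertk were above background on 0 of 4 arrays. The part of these markers in the difference of Apoe was not tested.

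Of 22 transcription factors of the platelet and red cell lines, 8 were lower, 5 were higher and 9 did not pass. Gata2, which acts in stem and early progenitor cells, was 2.22-fold lower, Zfpm1, the GATA1 partner FOG1, 2.03-fold lower and Gata1, the main factor of both lines, 1.98-fold lower. Each of the 3 kept its sign and its call under all 11 alternatives run on the lists, with Gata1 at a smaller -0.31 under normexp background correction. The list as a whole had 1 higher and 14 lower under quantile normalization. Runx1 (0.44), Ikzf1 (0.40) and Myb (0.31), which act across blood progenitors, were higher, but none of the 3 passed under spike-in scaling. The sign of Myb turned under quantile normalization, cyclic loess and with the authors' deposited matrix. The Ikzf1 call was lost in 6 of 11 alternatives and the Myb call in 8.

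**Figure D3:**
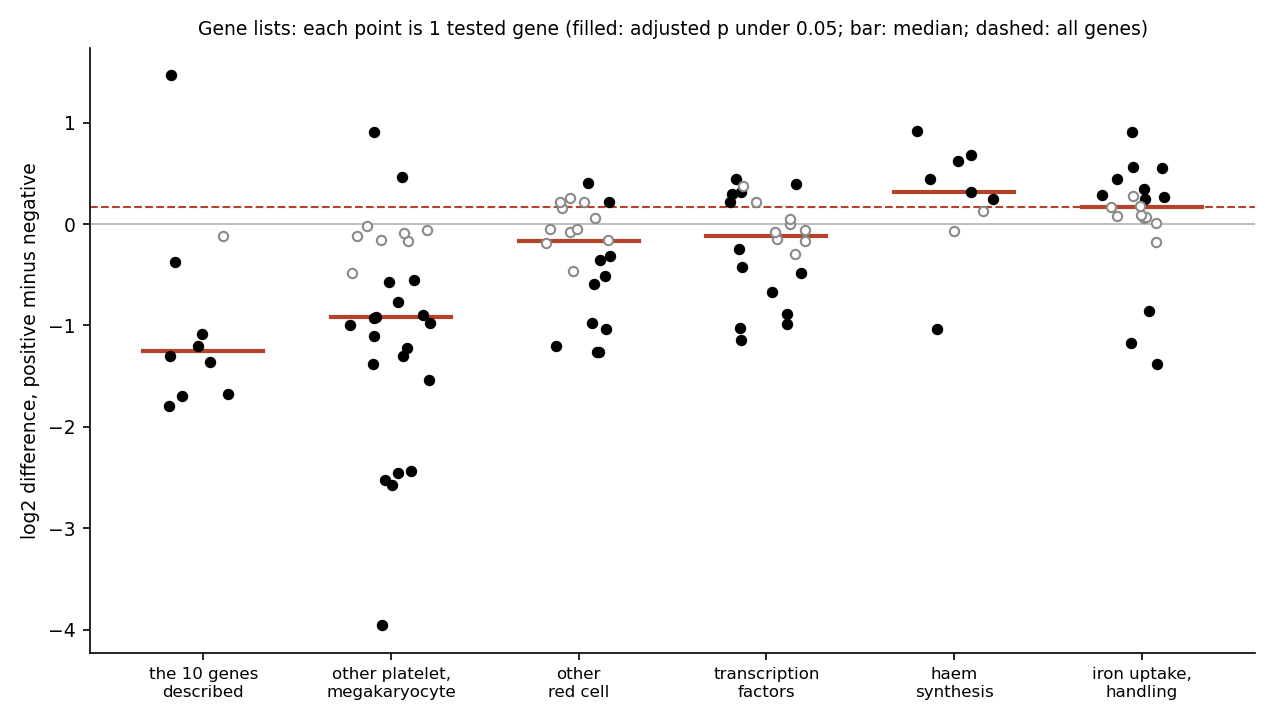
Log2 difference (positive minus negative) on the vertical axis for the 10 genes and 5 other lists, 1 point a tested gene, filled where the limma adjusted p was under 0.05, with the median of each list as a bar and that of all genes as a dashed line. The other platelet and megakaryocyte genes have a median of -0.91 and the haem synthesis genes a median of 0.32. Under quantile normalization these medians were -1.02 and 0.07, and under spike-in scaling -1.22 and 0.007.

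Markers of other cells also differed between the groups, not all in 1 direction. Of 9 blood stem cell markers 8 were tested, of which 6 were lower and 2 did not pass, and their summed level was 28.8 and 30.4 on the positive arrays and 73.9 and 76.1 on the negative arrays, with Slamf1 above background on 0 of 4 arrays. Gata2 is on this list and on that of the transcription factors. Of 10 erythroblast markers 8 were tested, with 6 lower and 2 not passing. Under normexp background correction 2 of them were higher and 4 lower. Their sum was 13.3 and 13.8 on the positive arrays against 23.6 and 25.8 on the negative arrays. Mature platelet markers went less one way. Of 8 markers 6 were tested, with 3 lower, 1 higher and 2 not passing, and their sum was 3.47 and 3.57 on the positive arrays and 3.07 and 3.24 on the negative arrays. Without Itgb3, left out after its value was seen, the other 5 summed to 1.26 and 1.28 on the positive arrays and 1.91 and 2.01 on the negative arrays. Of this list, Gp6 and Tubb1 were above background on 0 of 4 arrays. Ppbp, Treml1, Clec1b, Selp and Itgb3 were above background on all 4, and Gp1ba on the negative arrays alone. Monocyte markers summed to 86.0 and 89.9 on the positive arrays and 9.61 and 9.41 on the negative arrays. The part of any of these cells in the differences of the 10 genes was not tested.

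For each of the 7 genes above background on all arrays with a change of at least 2-fold, the named gene with the most similar profile was taken by Euclidean distance between the 4 array values, each centred on its mean. Over 4 arrays this likeness mostly reflects a similar difference between the groups. Pf4 lay nearest to Hspa12b (0.029), Itga2b to Cstad (0.0425), Vwf to Itga9 (0.0379) and Gp9 to Zfp467 (0.0172). Car2 lay nearest to Vldlr (0.0276), the Apoe receptor named above, and Apoe to Krba1 (0.0118). Tfrc lay nearest to Plk1 (0.0446), a kinase of mitosis, which was higher in the positive arrays by 1.43.

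The choice of scaling shifted the differences as a whole. The median of all genes was 0.16 with the 75th percentile, 0.04 under quantile normalization and -0.14 when arrays were scaled on 7 bright spike-in probes. Over the 6 other scalings Pf4 ranged from -2.10 to -1.82, Car2 from -2.05 to -1.84, Apoe from -1.39 to -1.20 and Tfrc from 1.16 to 1.41. All 10 genes kept their sign and 9 passed under each of these 6 scalings.

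**Figure D4:**
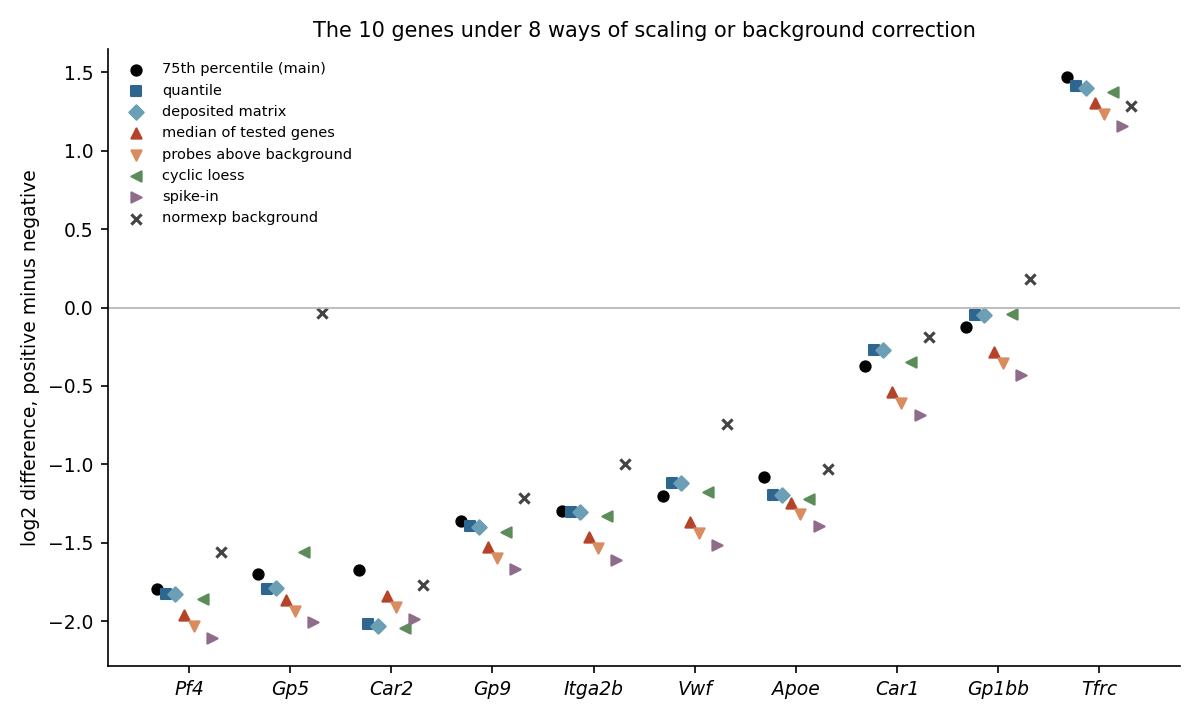
Log2 difference (positive minus negative, vertical axis) of each of the 10 genes under the 75th percentile, 6 other scalings and normexp background correction. The marks of a gene do not cross 0, except that Gp1bb lies at 0.18 under normexp background correction. Over all marks Tfrc lies between 1.16 and 1.47 and Pf4 between -2.10 and -1.56.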

How the data were processed

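The authors deposited 1 scanner file per array and a matrix. Per the file headers, Agilent Feature Extraction 10.7.3.1 gave each spot a processed intensity, with background and spatial trend removed and no scaling across arrays. Spots marked as outliers and control spots were left out, the spots of a probe were averaged, log2 was taken, and the 75th percentile of each array was subtracted from these log2 values of the deposited intensity. A probe was kept if at least 0.5 of its spots were well above background on both arrays of 1 or both groups, and the brightest kept probe stood for its gene. Accessions were matched without version to RefSeq (GRCm38.p6), which named 26756 probes and left 28913 unnamed. The number of arrays limits the precision.

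The difference, positive minus negative, was fitted with limma 3.58.1 (lmFit and eBayes, R 4.3.3), two-sided, with Benjamini-Hochberg adjustment over 22362 genes. With 2 arrays a group, the smallest two-sided p of an exact permutation test is 0.333. For a gene under background in a whole group, "at least N-fold" sets the brighter mean against a mean in which each dim array counts as its own value or its lowest detected signal, whichever was higher.

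The genes and lists were chosen with earlier results of these data known. All 10 genes are described, with up to 3 largest increases and decreases past the threshold from each list, genes on which a statement about a list turns, and the nearest profile of each gene changed at least 2-fold (not given for Gp5, whose values under background have no order). Some genes that this rule takes are not reported here. There were 20 alternatives to the fit. The authors' matrix of intensity values, alike in distribution over arrays, was one of them, and how it was made is not stated there. The titles call the array number exp, without saying what arrays of 1 number share, and deviations from group means correlated at 0.0971 between same-numbered arrays.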

Additional observations from a re-analysis of the deposited data

How the results depend on the processing

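Over the 20 alternatives between 7 and 9 of the 10 genes passed, and Pf4, Itga2b, Gp9, Vwf, Car2, Tfrc and Apoe kept their direction and their call in all 20. Gp1bb turned sign without negative array 1 (0.04), without positive array 2 (0.10) and under normexp background correction (0.18), and passed in none; its values ranged from -0.34 to 0.10 when 1 array was left out. Gp5 could not be fitted when only probes detected on every array were kept. With the replicate number as a block, 13946 genes passed against 13390, 8 of the 10 genes passed, and Gp5 lost its call (adjusted p = 0.0561). The labels do not show that the numbers pair the arrays. The count of all genes that passed ranged from 7602 (without negative array 1) to 12769 (without positive array 2) when 1 array was left out, the lone array taking its spread from the other group, and was 7861 at an adjusted p of 0.01. Scaling changed its split from 8611 higher and 4779 lower to 6060 and 5466 under quantile normalization, 6036 and 5488 with the authors' deposited matrix, 5542 and 5744 under cyclic loess, 5383 and 6337 with centring on the median of tested genes, 4382 and 7253 with centring on the probes detected on every array, and 3299 and 8099 under spike-in scaling. With no filter on dim probes 14564 were higher and 4372 lower, and under normexp background correction 10024 and 3595. The causes of these changes were not tested. Signal over background limits what can be said of Gp5, Gp1bb and the dimmer probe of Car1.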
